A study of Mus musculus with 2 samples.

Results

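The cells described here passed a gate on phagocyte genes and are called macrophages, although some also carried dendritic cell genes. They came from subcutaneous mouse tumours. All carried transcripts of the chemokine gene Cxcl9 or of the class II regulator gene Ciita together with high class II transcripts. They were chosen by measured values. A gate took cell barcodes with at least 2000 unique molecular identifiers (UMIs, each standing for 1 captured transcript), at most 15% mitochondrial UMIs, and at least 4 of the 9 phagocyte genes Lyz2, Ctss, Cybb, Csf1r, Ms4a7, Mrc1, C1qa, Tyrobp and Fcer1g. It allowed at most 2 UMIs of the tumour genes Hmga2, Sox9, Tafa1 and Hoxa9 together and 0 UMIs of the T cell genes Cd3e and Cd3d. Within the gate, a cell was selected when Cxcl9 and Ciita together had at least 2 UMIs and the class II genes H2-Aa, H2-Ab1 and H2-Eb1 together had at least 20 UMIs per 10000. The rule found 351 cells among 1407 gated cells and 28346 barcodes. Of these, 129 lay in the library labelled SPP1 and 222 in the library labelled vector, beside 468 and 588 other gated cells.

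CXCL9 is a chemokine that is induced in macrophages by interferon-gamma, and it draws activated T cells that carry the receptor CXCR3. CIITA is the transcriptional co-activator that switches on the class II genes, whose products present peptides to CD4 T cells. Macrophages of tumours that make CXCL9 are commonly set apart from those that make the glycoprotein SPP1 or carry genes of tissue-resident macrophages.

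The tumours were grown in C57BL/6 mice from MC38, a mouse colon adenocarcinoma line, as a pool of cells stably transduced with a lentivirus for SPP1 or for the vector alone. The labels name the genotype WT in both groups and report a Western blot that showed SPP1. Both groups were given an antibody to PD-1, an inhibitory T cell receptor, into the peritoneum in doses of 10 mg/kg from day 7 on, over 2 weeks with 2 injections in each. No group without the antibody and no untransduced tumour was analysed here. The tumour of 1 mouse per group gave 1 library, so the 2 libraries cannot be compared against a spread between animals, and tumour cell pool, mouse and library cannot be told apart. No p-value is given, and all intervals are 95% intervals that cover the error of counting and nothing else. They are exact, except those of a ratio of 2 shares, which use the normal approximation on the log scale.

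There were 14029 barcodes with 164599332 UMIs in the library labelled SPP1 and 14317 with 164247003 UMIs in the library labelled vector, and the median barcode held 10218 and 10277 UMIs. The targeted gene went against the labels at the RNA level: Spp1 stood at 250 CPM (UMIs scaled to 1000000 in all) over all barcodes of the library labelled SPP1 and at 287 CPM over those of the library labelled vector. The sources used here do not say whether the transcript of the lentivirus would be counted as Spp1, and the libraries are therefore named by their labels throughout. The 2 libraries shared 93 barcode sequences, of which 0 were gated cells. Doublets were predicted in each library, and 1 selected cell of the library labelled SPP1 and 2 of the library labelled vector were among them. They were kept, and leaving them out changed neither count of genes given below by over 1.5 times.

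The values that chose the cells are given first, as a description. Cxcl9 stood at 1446 and 1285 CPM in the selected cells of the libraries labelled SPP1 and vector, and at 97.4 and 101 CPM in the other gated cells. Ciita stood at 93.8 and 118 CPM in the selected cells and at 6.07 and 14.6 CPM in the others. The class II alpha chain gene H2-Aa stood at 4210 and 4976 CPM in the selected cells and at 1057 and 2758 CPM in the others, and the beta chain genes H2-Ab1 and H2-Eb1 followed the same order. The same thresholds were applied in both libraries, which limits how far the selected cells can differ in these genes. The class II genes of the other gated cells were far lower in the library labelled SPP1. Per cell, the 3 class II genes made up a median of 114 UMIs per 10000 (quartiles 65 and 171) in the selected cells of the library labelled SPP1 and 132 (79.4 and 184) in those of the library labelled vector. In the other gated cells the medians were 3.83 and 51.1. The median selected cell held 6 Cxcl9 UMIs in either library, with a highest value of 116 in the library labelled SPP1. Of the selected cells of the library labelled SPP1, 69 (53.5%) had UMIs of Cxcl9 alone, 43 (33.3%) of both genes and 17 (13.2%) of Ciita alone. In the library labelled vector these were 102 (45.9%), 87 (39.2%) and 33 (14.9%).

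**Figure D1:**
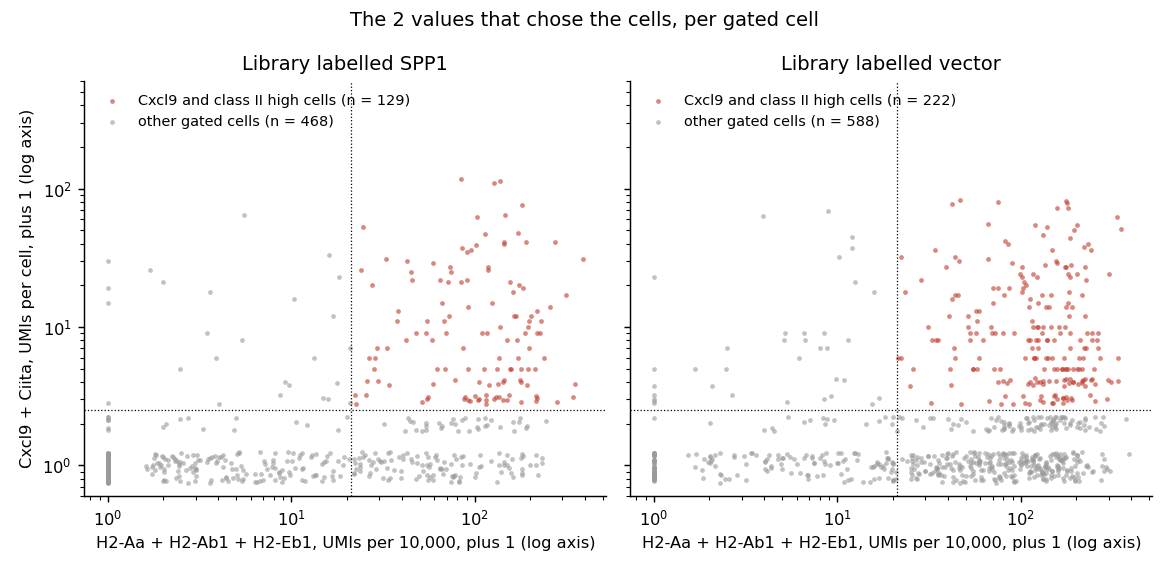
Each point is 1 gated cell, with class II UMIs per 10000 plus 1 on the x axis and Cxcl9 plus Ciita UMIs plus 1 on the y axis, both logarithmic, in the library labelled SPP1 (left) and the library labelled vector (right). Dotted lines mark the thresholds, low UMI counts are spread vertically to show the cells, and the cells above both, 129 and 222, are the selected ones; many of the other cells of the library labelled SPP1 sit at low class II values.

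The thresholds ran through a continuum. Just outside, 35 cells of the library labelled SPP1 and 94 of the library labelled vector had enough class II transcripts but exactly 1 UMI of Cxcl9 and Ciita. Just inside, 28 and 27 cells had exactly 2. Few cells lay near the class II threshold: 6 and 1 cells with at least 2 UMIs of Cxcl9 and Ciita held 15 to 20 class II UMIs per 10000, and 6 and 6 held 20 to 25. A rule on raw UMIs favours deep cells, and the selected cells held a median of 9565 UMIs in the library labelled SPP1 and 9639 in the library labelled vector, against 7234 and 7334 in the other gated cells. The part of this difference in the gene results was not tested, but the counts after thinning each cell to 2000 UMIs stand in the closing section.

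The promoters of the chosen genes and of 2 genes that lay high in the selected cells are printed because both groups of genes are known to be switched on through short upstream elements. The class II genes are read from a module whose last box, the Y box, holds an inverted CCAAT, and Gbp2 and Cxcl10 are known targets of interferon-induced factors, which bind repeats of GAAA. The sequences were taken from RefSeq (build GRCm38.p6) and run 5′ to 3′ on the strand of the gene from 250 bases before its start to 50 bases from it. The count tables are named for build GRCm39, and no position was carried between the builds. Capitals mark CTGATTGG or its reverse complement CCAATCAG, and an interferon-type repeat, GAAA followed by any 2 bases and GAAA again, or its reverse complement with TTTC. H2-Ab1, Ciita and Cd86 were not among the promoters matched.
Cxcl9, chr5:92328030-92328329, minus strand: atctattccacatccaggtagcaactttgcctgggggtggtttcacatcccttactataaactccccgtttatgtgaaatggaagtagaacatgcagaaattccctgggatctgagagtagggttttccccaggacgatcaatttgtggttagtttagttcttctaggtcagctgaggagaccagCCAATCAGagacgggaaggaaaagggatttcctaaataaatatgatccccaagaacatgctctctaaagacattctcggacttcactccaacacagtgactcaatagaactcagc
Cxcl10, chr5:92348840-92349139, minus strand: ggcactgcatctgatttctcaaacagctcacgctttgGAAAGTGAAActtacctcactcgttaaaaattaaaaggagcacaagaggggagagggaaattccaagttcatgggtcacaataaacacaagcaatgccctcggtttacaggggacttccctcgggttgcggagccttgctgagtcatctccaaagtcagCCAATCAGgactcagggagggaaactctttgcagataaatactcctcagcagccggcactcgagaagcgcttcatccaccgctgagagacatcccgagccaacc
H2-Aa, chr17:34287774-34288073, minus strand: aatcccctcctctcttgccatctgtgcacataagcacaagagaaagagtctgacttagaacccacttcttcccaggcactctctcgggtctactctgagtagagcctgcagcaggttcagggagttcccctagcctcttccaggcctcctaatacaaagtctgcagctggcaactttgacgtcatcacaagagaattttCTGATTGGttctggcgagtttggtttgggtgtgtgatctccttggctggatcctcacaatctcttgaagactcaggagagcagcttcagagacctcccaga
H2-Eb1, chr17:34305617-34305916, plus strand: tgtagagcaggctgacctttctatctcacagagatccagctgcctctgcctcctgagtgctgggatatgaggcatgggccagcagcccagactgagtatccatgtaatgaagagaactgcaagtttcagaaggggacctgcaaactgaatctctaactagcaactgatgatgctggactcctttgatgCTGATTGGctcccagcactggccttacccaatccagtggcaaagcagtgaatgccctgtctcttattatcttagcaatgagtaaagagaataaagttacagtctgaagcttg
Gbp2, chr3:142620413-142620712, plus strand: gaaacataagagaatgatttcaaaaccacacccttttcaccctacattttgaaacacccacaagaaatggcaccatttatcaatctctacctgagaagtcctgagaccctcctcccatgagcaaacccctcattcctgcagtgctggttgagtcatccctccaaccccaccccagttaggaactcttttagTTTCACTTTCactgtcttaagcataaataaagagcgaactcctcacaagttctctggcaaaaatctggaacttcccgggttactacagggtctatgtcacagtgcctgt

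The Y box letters CTGATTGG stood 51 to 44 bases before the start of H2-Aa and 62 to 55 bases before that of H2-Eb1. In reverse complement they also stood 65 to 58 bases before the start of Cxcl9 and 54 to 47 bases before that of Cxcl10. On either strand these letters occurred in 4.1% of 32851 promoter windows of the same length. The interferon-type repeat stood 213 to 204 bases before the start of Cxcl10 and 59 to 50 bases before that of Gbp2, and occurred in 3.44% of the windows. The letters of an interferon-gamma-activated site, TTCNNNGAA, which read the same on both strands, were found in 8.3% of the windows and in none of these 5. The matched letters do not overlap each other, and each match is a description of the letters and not of binding.

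The label of macrophage was checked against marker genes. Outside the gate, Adgre1, which encodes the mouse macrophage marker F4/80, stood at 435 and 376 CPM in the selected cells of the libraries labelled SPP1 and vector, and at 521 and 442 CPM in the other gated cells. Cd68, a lysosomal membrane protein gene of macrophages, stood at 454 and 337 CPM in the selected cells and at 467 and 396 CPM in the others. The selected cells thus carried both genes at levels near those of the other gated cells. The macrophage gene C1qa, for a complement component, stood at 1582 and 1068 CPM in the selected cells of the libraries labelled SPP1 and vector, and at 1529 and 1068 CPM in the other gated cells. Lyz2, which encodes lysozyme, stood at 6084 and 4884 CPM in the selected cells and at 6897 and 5586 CPM in the others, and both genes were used by the gate. Cd86, a costimulatory ligand of T cells, stood at 948 and 822 CPM in the selected cells and at 778 and 716 CPM in the others (log2 ratios 0.29, interval 0.19 to 0.38, and 0.20, 0.11 to 0.28). Ccr2, the receptor that brings monocytes out of the blood, stood at 490 and 700 CPM in the selected cells and at 370 and 586 CPM in the others (log2 ratios 0.41, 0.27 to 0.54, and 0.25, 0.16 to 0.35). Neither gene was past a 1.5-fold difference, so Cd86 and Ccr2 set these cells only slightly apart from the other gated cells.

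As a rough gauge of free RNA in droplets, barcodes with at least 10 UMIs of tumour genes were set beside the gated cells. Single barcodes of this kind held up to 176 Cxcl9 UMIs in the library labelled SPP1 and 87 in the library labelled vector. Of these barcodes, 3.98% and 3.33% were predicted doublets. Free RNA, doublets and transcripts made by the tumour cells were not told apart. After thinning to 2000 UMIs, Cxcl9 was found in 67.4% and 66.7% of the selected cells of the libraries labelled SPP1 and vector, in 5.13% and 7.14% of the other gated cells and in 4.55% and 4.33% of the tumour-gene cells. Before thinning these shares were 86.8% and 85.1%, 13% and 13.8%, and 12.5% and 12.4%, and the tumour-gene cells held medians of 13181 and 14082 UMIs. The low share in the other gated cells follows from the rule, which used Cxcl9. Ciita in thinned cells was found in 14.7% and 16.7% of the selected cells, in 1.5% and 3.4% of the others and in 0.628% and 0.703% of the tumour-gene cells. Cd86 was found in 74.4% and 63.5% of the selected cells, in 61.5% and 60% of the others and in 1.03% and 0.586% of the tumour-gene cells, and is thus a transcript of gated cells. Cxcl10, however, was found in 38% and 29.3% of the selected cells, in 20.3% and 18.9% of the others and in 19.5% and 21.4% of the tumour-gene cells. Tumour cells can make Cxcl10 themselves, and its source in the other gated cells was not tested.

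Dendritic cells also carry class II and could lie in the gate. A UMI of any of 6 dendritic genes (Flt3, Zbtb46, Xcr1, Clec9a, Cd209a or Ccr7) was found in 16 of 129 selected cells of the library labelled SPP1 (12.4%, 7.26 to 19.4) and in 31 of 222 of the library labelled vector (14%, 9.69 to 19.2). In the other gated cells the shares were 6.2% and 4.59%. The share was 23.5% and 21.2% in the cells with Ciita alone, 18.6% and 19.5% in those with both genes, and 5.8% and 6.86% in those with Cxcl9 alone. Xcr1, which defines type 1 dendritic cells, stood at 0.795 and 1.86 CPM in the selected cells and at 6.07 and 5.51 CPM in the others. Very few cells held these UMIs, 1 and 2 selected cells (0.775% and 0.901%) and 2 and 2 others (0.427% and 0.34%). By share of cells the order was thus the reverse. Clec9a, also a type 1 gene, was found in 3.88% and 4.5% of the selected cells and in 2.99% and 0.68% of the others. Zbtb46, a transcription factor of classical dendritic cells, stood at 7.95 and 13 CPM in the selected cells and at 2.48 and 4.63 CPM in the others. Cd209a, a gene of monocyte-derived and type 2 dendritic cells, stood at 7.95 and 32.2 CPM in the selected cells and at 1.93 and 7.5 CPM in the others. The whole common dendritic list, with 6 of 6 genes found, summed to 142 and 173 CPM in the selected cells and to 61 and 84 CPM in the others. The type 1 list, with 8 of 9 genes found in the selected cells and Snx22 at 0, summed to 659 and 705 CPM against 315 and 426 CPM. The type 2 list summed to 871 and 852 CPM in the selected cells and to 349 and 619 CPM in the others. The plasmacytoid list, with Siglech, Klk1 and Ly6d at 0 in the selected cells, summed to 572 and 462 CPM against 651 and 545 CPM. Itgax and Naaa, which macrophages also express, are among the genes of the first 2 of these lists. Of the genes with enough counts, 1 of 1 common (Itgax), 1 of 3 type 1 (Naaa) and 1 of 2 type 2 genes (Mgl2) were past 1.5-fold higher in both libraries. Of the migratory dendritic and plasmacytoid lists, 0 of 2 genes each were, and of all genes compared 0.458%. Of T cell genes, the list summed to 15.1 and 10.7 CPM in the selected cells and to 7.73 and 11.7 CPM in the others, and of NK cell genes to 7.15 and 5.59 CPM and to 6.63 and 15.4 CPM. The tumour gene list summed to 524 and 408 CPM in the selected cells and to 714 and 683 CPM in the others. The medians per cell differed less, at 4.82 and 3.47 UMIs per 10000 in the selected cells and 5.21 and 3.98 in the others. The highest cells held 24.9 and 30 per 10000 among the selected cells and 219 and 310 among the others.

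The selected cells were a smaller share of the gate in the library labelled SPP1. They made up 21.6% of its gated cells (18.4 to 25.1), against 27.4% (24.4 to 30.6) in the library labelled vector, a log2 ratio of -0.34 (-0.62 to -0.07). The rest of the gate differed more. Cells with class II transcripts at the threshold but under 2 UMIs of Cxcl9 and Ciita were 144 (24.1%) in the library labelled SPP1 and 381 (47%) in the library labelled vector, a log2 ratio of -0.96 (-1.19 to -0.73). Cells below both thresholds were 298 (49.9%) and 172 (21.2%), a log2 ratio of 1.23 (1.01 to 1.46). Cells with Cxcl9 or Ciita but low class II were few, 26 (4.36%) and 35 (4.32%). Among the cells with class II at the threshold, the selected ones were therefore a larger share in the library labelled SPP1, 47.3% (41.2 to 53.4), than in the library labelled vector, 36.8% (33 to 40.8), a log2 ratio of 0.36 (0.12 to 0.60). The sign of the difference thus depended on the denominator. Of all barcodes within the UMI and mitochondrial limits, the selected cells were 1.04% (0.867 to 1.23) and 1.8% (1.57 to 2.05), with the whole gate at 4.8% and 6.55%.

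**Figure D2:**
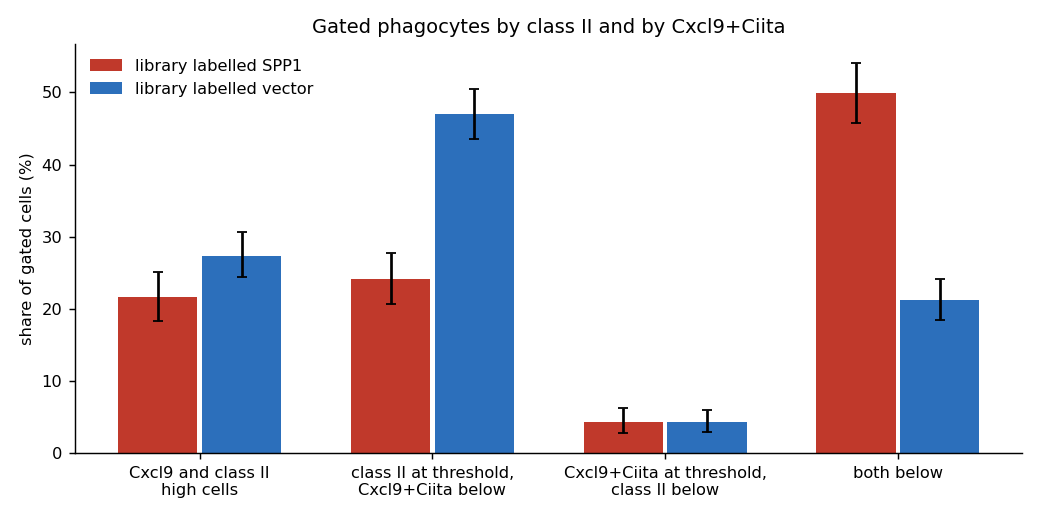
The y axis gives the percent of gated cells in each of 4 classes of the rule, for the library labelled SPP1 (left bar of each pair, 597 gated cells) and the library labelled vector (right bar, 810 gated cells), with exact 95% binomial intervals. The selected cells are 21.6% and 27.4%, and the cells below both thresholds 49.9% and 21.2%.

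Beyond the genes of the rule, genes known to respond to interferon-gamma stood out in the selected cells. UMIs were summed over the cells of each class and library, and a gene was counted when the whole interval of its ratio lay past 1.5-fold in both libraries. Of 6113 genes with enough counts, 28 (0.458%) were higher and 14 (0.229%) lower in the selected cells, and 0 were past 1.5-fold in opposite directions. A further 111 genes were past 1.5-fold in the library labelled SPP1 alone and 40 in the library labelled vector alone. The comparison is within each tumour, so the 2 libraries repeat it, but cells of 1 library share their animal and preparation. All genes were measured in the cells that the rule sorted, so the ratios describe the selected cells and are no test of them.

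Of the interferon-gamma response list, 19 of 31 genes found had enough counts, and 5 were higher in the selected cells of both libraries and 0 lower. The list's median log2 ratio was 1.04 in the library labelled SPP1 and 0.49 in the library labelled vector, against -0.02 and -0.03 over all genes compared. Gbp2, an interferon-induced GTPase that acts against intracellular microbes, stood at 358 and 370 CPM in the selected cells of the libraries labelled SPP1 and vector, against 118 and 124 CPM in the other gated cells (log2 ratios 1.59 and 1.58). Cxcl10, a second ligand of CXCR3, stood at 1165 and 861 CPM against 348 and 342 CPM (1.74 and 1.33). Serpina3g, a protease inhibitor gene with close copies beside it that share sequence, stood at 42.9 and 41.9 CPM in the selected cells against 5.8 and 10.6 CPM in the others (2.89 and 1.99). Iigp1, an immunity-related GTPase, stood at 257 and 296 CPM against 112 and 118 CPM (1.20 and 1.32), and Fcgr4, an activating Fc receptor, at 183 and 177 CPM against 64.3 and 91.3 CPM (1.51 and 0.95). All 5 genes kept the same order in both libraries. The regulator gene Irf1 differed less, with log2 ratios of 0.61 and 0.28. The receptor genes Ifngr1 (-0.12 and -0.15) and Ifngr2 (0.05 and -0.04) lay close to 0.

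Several other genes past 1.5-fold encode enzymes and surface proteins of activated macrophages. Acod1, the enzyme that makes itaconate, stood at 161 and 132 CPM in the selected cells of the libraries labelled SPP1 and vector, against 51.1 and 52.1 CPM in the other gated cells (log2 ratios 1.66 and 1.35). Ly6a, which encodes the surface protein Sca-1, stood at 483 and 381 CPM against 143 and 163 CPM (1.76 and 1.23), and Slamf8, a SLAM family receptor, at 66.8 and 62.9 CPM against 17.4 and 24.5 CPM (1.94 and 1.36). Pdcd1lg2, which encodes the PD-1 ligand PD-L2, stood at 46.1 and 48.5 CPM against 9.11 and 21.2 CPM (2.34 and 1.19). This gene was the 1 of 9 costimulatory and checkpoint genes compared that passed in both libraries. Cd274, which encodes the other ligand PD-L1, stood at 250 and 251 CPM in the selected cells against 139 and 177 CPM in the others (0.85 and 0.51), and Cd40 had log2 ratios of 0.77 and 0.68; neither was past 1.5-fold in both. Tnfsf13b, which encodes the B cell factor BAFF, had log2 ratios of 1.59 and 1.44, and Calhm6, a channel protein gene, stood at 38.2 and 48.5 CPM against 8.83 and 12.4 CPM (2.11 and 1.97). Klrk1, which encodes the activating receptor NKG2D known from NK and T cells, stood at 24.6 and 28.9 CPM against 4.69 and 7.28 CPM (2.39 and 1.99), beside the low NK and T list sums given above. Klrk1 lost the call without its 3 highest cells of each group, which held 32.3% and 27.4% of its UMIs in the selected cells. Its CPM lay near the 20 CPM that a call needs, so this does not show that the ratio fell. The signalling adaptor gene Grap2 (1.59 and 1.24) and Il1r2 (1.37 and 1.14), a decoy receptor for interleukin-1, completed the 14 genes named by size with H2-DMb2 below.

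Genes of the class II pathway that the rule did not use were also higher in the selected cells. Of 8 class II presentation genes compared, 3 were higher in both libraries and 0 lower, with a median log2 ratio of 0.87 in the library labelled SPP1 and 0.71 in the library labelled vector. Cd74, the invariant chain that guards the peptide groove, stood at 7522 and 7394 CPM in the selected cells and at 2272 and 4397 CPM in the other gated cells (log2 ratios 1.73 and 0.75). H2-DMb1 (1.55 and 0.82) and H2-DMb2 (1.20 and 1.76) encode beta chains of the peptide exchanger H2-DM, and their near-identical sequence leaves the split of reads between them uncertain. H2-DMb2 was no longer past 1.5-fold in both libraries without its 3 highest cells in each group. The protease genes of the list went the other way, with log2 ratios of -0.17 and -0.32 for Lgmn and -0.74 and -0.90 for Ctsl, not past 1.5-fold in both libraries.

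Of 14 class I presentation genes, 14 in the library labelled SPP1 and 13 in the library labelled vector lay above 0, with medians of 0.69 and 0.23, and 0 were past 1.5-fold in both. The immunoproteasome gene Psmb9 had log2 ratios of 0.94 and 0.35, and B2m, the shared light chain of class I, of 0.46 and 0.18. Of 8 type I interferon genes compared, 0 passed in both libraries, with medians of 0.79 and 0.46. Ifih1, which encodes the RNA sensor MDA5, had log2 ratios of 0.99 and 0.44. The medians of both lists lay above that of all genes in either library, although 0 genes of either list were past 1.5-fold in both.

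Genes of resident-type macrophages were lower in the selected cells. Of 10 compared, 4 were lower in both libraries and 0 higher, with median log2 ratios of -0.78 and -0.89. Fcrls, a Fc receptor-like gene, stood at 69.2 and 43.8 CPM in the selected cells of the libraries labelled SPP1 and vector, against 286 and 107 CPM in the other gated cells (-2.05 and -1.29). Pf4, a chemokine gene also used as a marker of resident macrophages, stood at 1048 and 602 CPM against 1721 and 1169 CPM (-0.72 and -0.96). Gas6, a ligand of the receptors that clear dying cells, stood at 18.3 and 8.39 CPM against 48 and 32.9 CPM (-1.39 and -1.97), and Cbr2, a carbonyl reductase, had log2 ratios of -1.41 and -1.51. These 4 genes were lower in the selected cells of either tumour. Outside the list, F13a1, which encodes the clotting factor XIII A chain, stood at 340 and 130 CPM in the selected cells against 820 and 439 CPM in the others (-1.27 and -1.75). Hmox1, which breaks down heme, stood at 76.3 and 98.8 CPM against 180 and 231 CPM (-1.24 and -1.23), and Cav1, a protein of membrane caveolae, at 22.3 and 35.4 CPM against 73.4 and 102 CPM (-1.72 and -1.53). The remaining genes lower in both were Ankrd33b, the atypical chemokine receptor gene Ackr3, the transcription factor gene Bhlhe41, the ubiquitin ligase gene Wwp1, Pam, Pmp22 and Emp1, whose log2 ratios ran between -0.73 for Emp1 in the library labelled vector and -2.20 for Ankrd33b in the library labelled SPP1.

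The macrophage gene Spp1 was lower in the selected cells, at 1456 CPM in the library labelled SPP1 and 1940 CPM in the library labelled vector, than in the other gated cells, at 3066 and 2376 CPM. The log2 ratio of -1.07 was past 1.5-fold in the library labelled SPP1, and that of -0.29 in the library labelled vector was not. The difference between these 2 ratios has no replicate. Other genes of lipid-associated macrophages were mostly lower too: of 17 compared, 4 and 2 lay above 0, 0 passed in both libraries, and the medians were -0.50 and -0.29. Trem2, their defining lipid receptor gene, had log2 ratios of -0.27 and -0.30, and Mrc1, the mannose receptor gene of the gate, of -0.26 and -0.42. Arg1, the arginase gene, had 0.23 and -0.19 and so no common direction.

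Other lists showed little that was common to both libraries. Of 14 inflammatory cytokine and NF-kB genes 0 passed in both, with medians of -0.31 and 0.10, and Il1b, which encodes interleukin-1 beta, had log2 ratios of 0.54 and 0.36. Of 16 chemokine genes, Cxcl10 alone passed in both libraries, and the medians were -0.25 and -0.13. Monocyte genes had 1 of 11 higher and 1 lower (medians 0.41 and 0.25), and genes of alternative activation 1 of 8 higher (0.25 and 0.08). Heat shock and dissociation genes, which mark handling of the cells, had medians of -0.55 and -0.06, with 0 of 17 past 1.5-fold in both. Cell cycle genes lay above 0 for 17 of 19 in the library labelled SPP1 and for 5 of 19 in the library labelled vector, with medians of 0.18 and -0.18 and 0 past 1.5-fold in both. Lysosome, hypoxia, complement and transcription factor genes had medians between -0.14 and 0.11 in both libraries.

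**Figure D3:**
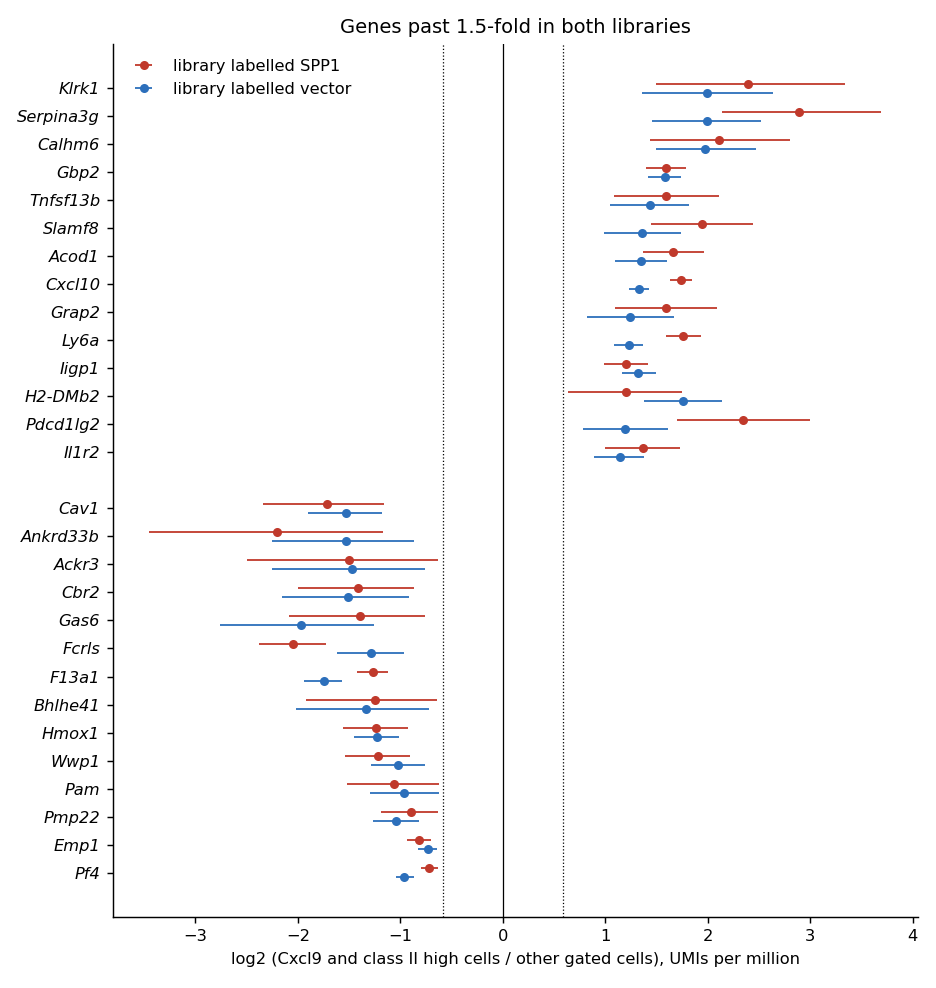
The x axis gives the log2 ratio of CPM in the Cxcl9 and class II high cells over that in the other gated cells, with exact 95% intervals, for each named gene in the library labelled SPP1 and in the library labelled vector. Dotted lines mark 1.5-fold; interferon-gamma response genes such as Gbp2 lie to the right in both libraries and resident-type genes such as Fcrls to the left.

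Since the other gated cells of the library labelled SPP1 were poor in class II, the selected cells were also set against cells with class II at the threshold but under 2 UMIs of Cxcl9 and Ciita, a comparison chosen after the first was seen. Against these, 16 of 6036 genes (0.265%) were higher and 1 (0.0166%) lower in both libraries, and 12 of the 42 genes past 1.5-fold in the first comparison were past it here too. Of the interferon-gamma response list, 5 of 19 genes were higher, with medians of 0.78 and 0.49. The type I interferon list had larger medians, 0.91 and 0.58, with 1 of 8 genes higher. Cxcl10 had log2 ratios of 2.03 in the library labelled SPP1 and 2.01 in the library labelled vector, Gbp2 of 1.99 and 1.59, Serpina3g of 3.58 and 2.95, Acod1 of 2.36 and 1.40 and Iigp1 of 1.26 and 1.42. Ccl8, a monocyte-attracting chemokine gene (2.23 and 0.85), Ch25h, the cholesterol 25-hydroxylase gene (1.62 and 0.91), and Ifit1, an antiviral gene (1.57 and 1.21), were past 1.5-fold here and not in the first comparison. The gene that was lower was Mmp13, a collagenase gene, at 66.8 and 78.3 CPM in the selected cells and 256 and 146 CPM in the cells with class II alone (-1.94 and -0.90).

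Of 8 resident-type genes compared with the cells with class II alone, 0 were past 1.5-fold in both libraries, and the median log2 ratio was 0.18 in the library labelled SPP1 and -0.36 in the library labelled vector. Fcrls had 0.13 (-0.34 to 0.61) and -0.66 (-1.02 to -0.30), and Pf4 had 0.07 (-0.05 to 0.19) and -0.29 (-0.39 to -0.19). Fcrls and Pf4 thus stayed lower in the library labelled vector, while in the library labelled SPP1 their intervals spanned 0. The list was not uniform. In the library labelled SPP1, Folr2 (0.73), Stab1 (0.42), Maf (0.38) and Selenop (0.22) had intervals above 0, and that of Mertk spanned 0. In the library labelled vector, Folr2 (-1.09) and Selenop (-0.44) had intervals below 0, and those of Stab1, Mertk and Maf spanned 0. Igf1, a growth factor gene, was lower in both, with -1.06 (-1.59 to -0.55) and -0.49 (-0.82 to -0.17). Cd74 had log2 ratios of 0.28 and 0.23, and 0 of 8 class II presentation genes passed. Ccr2 was no higher than in the cells with class II alone, which held 580 and 724 CPM (-0.24 and -0.05). The second comparison puts both sets of cells over the class II threshold but does not match their levels. The class II medians were 114 and 132 UMIs per 10000 in the selected cells and 64.8 and 98.6 in the cells with class II alone. Median depth was 9565 and 9639 UMIs against 7481 and 7507. The difference between the comparisons was not tested.

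The selected cells were not alike among themselves. The rule accepts a cell through Cxcl9 or through Ciita, and cells with UMIs of Cxcl9 alone (69 and 102) were set against those with UMIs of Ciita alone (17 and 33), a split made after values had been seen. Few cells lie in the Ciita group, and since Ciita has few UMIs per cell, 0 UMIs does not show that a cell lacks it. Of 5332 genes compared, 22 (0.413%) were higher and 23 (0.431%) lower in the cells with Cxcl9 alone, past 1.5-fold in both libraries. The genes given here were picked after their values were seen.

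Of 8 resident-type genes compared, 3 were higher in the cells with Cxcl9 alone and 0 lower, with median log2 ratios of 1.27 and 1.45 against 0.05 and 0.04 over all genes, and of 16 lipid-associated genes 3 were higher and 1 lower (0.97 and 0.72). Pf4 stood at 1377 and 1002 CPM in the cells with Cxcl9 alone in the libraries labelled SPP1 and vector, against 257 and 115 CPM in the cells with Ciita alone (log2 ratios 2.42 and 3.12). Apoe, a lipid carrier of macrophages, stood at 2992 and 2080 CPM against 1056 and 901 CPM, and Ctsb, the lysosomal protease cathepsin B, at 3531 and 2834 CPM against 1242 and 995 CPM (1.51 and 1.51). Maf, a transcription factor gene of macrophages, stood at 352 and 332 CPM against 121 and 130 CPM (1.54 and 1.35). Vcam1, an adhesion molecule gene, stood at 161 and 185 CPM against 14.3 and 15.2 CPM, the last from 2 and 5 UMIs. Of 14 chemokine genes compared, 4 were higher in the cells with Cxcl9 alone and 1, Ccl17, lower. Ccl2, whose product is the ligand of CCR2, stood at 2507 and 1518 CPM against 542 and 534 CPM (2.21 and 1.51), and its neighbour Ccl7 at 1282 and 725 CPM against 128 and 121 CPM (3.32 and 2.58). Ccl8 stood at 1032 and 481 CPM in the cells with Cxcl9 alone, against 1 UMI and 0 UMIs in the cells with Ciita alone. Interferon-response genes were also on this side, with Cxcl10 at 779 and 863 CPM against 114 and 185 CPM (2.77 and 2.22) and Gbp2 at 259 and 388 CPM against 57.1 and 115 CPM (2.18 and 1.75).

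The cells with Ciita alone carried more of Ccr2, at 377 and 478 CPM in the cells with Cxcl9 alone against 1049 and 1065 CPM in those with Ciita alone (-1.48 and -1.16). Mgl2, a lectin gene of alternatively activated macrophages and type 2 dendritic cells, stood at 204 and 128 CPM against 464 and 555 CPM (-1.19 and -2.12). Ccl17, a chemokine gene of dendritic cells and some macrophages, stood at 0 and 3.25 CPM in the cells with Cxcl9 alone against 171 and 507 CPM in those with Ciita alone. Cdh1, the E-cadherin gene, stood at 10.7 and 22.8 CPM against 136 and 191 CPM (-3.66 and -3.07), Il1r2 at 45.9 and 32.5 CPM against 164 and 313 CPM, and Dcstamp, a fusion protein gene of osteoclasts and dendritic cells, at 39.8 and 124 CPM against 371 and 306 CPM (-3.22 and -1.31). The same order held in either library for each of these genes. Zbtb46 stood at 1.53 and 0 CPM against 28.5 and 36.4 CPM, and Cd209a at 0 and 0 CPM against 0 and 106 CPM, beside the higher share of cells with a dendritic UMI given above. The gate gene Ms4a7 stood at 576 and 315 CPM in the cells with Cxcl9 alone against 42.8 and 97.1 CPM in those with Ciita alone. Csf1r, also of the gate, differed less, at 421 and 467 CPM against 335 and 422 CPM. The part of dendritic cells in these differences was not tested. Over the whole set of selected cells, leaving out every gated cell with a UMI of the 6 dendritic genes gave 22 genes higher and 9 lower than in the other gated cells, and 29 of the 42 genes stayed past 1.5-fold in both libraries.

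**Figure D4:**
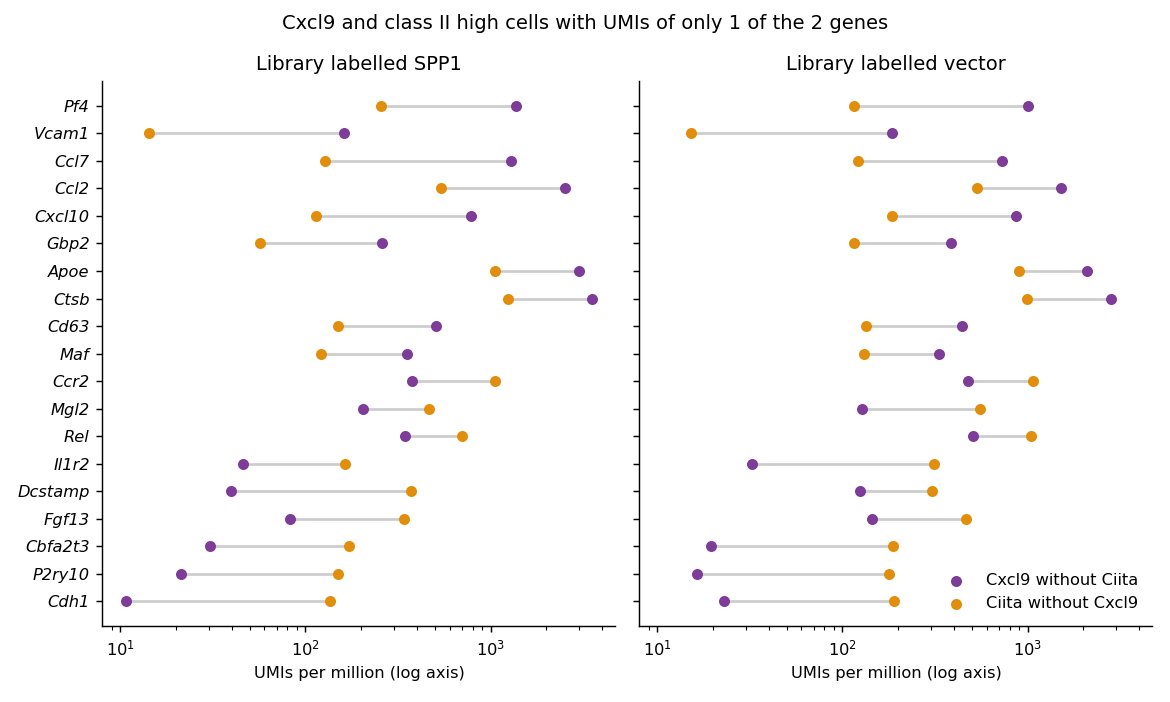
The x axis gives CPM on a logarithmic scale in selected cells with UMIs of Cxcl9 alone and with UMIs of Ciita alone, joined by a line, for genes picked after their values were seen, in the library labelled SPP1 and in the library labelled vector. Pf4 and Ccl2 are higher in the cells with Cxcl9 alone, and Ccr2 and Mgl2 in those with Ciita alone, in both libraries.

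Within the selected cells, few genes differed between the libraries. Of 3722 genes with enough counts, 29 (0.779%) were higher and 9 (0.242%) lower in the library labelled SPP1 with the interval past 1.5-fold, and the median size of the log2 ratio was 0.18 over all genes. The values compare 2 libraries of 1 mouse each. Of these 38 genes, 30 had enough counts in the other gated cells, where 3 were past 1.5-fold the same way and 0 the opposite way. Not all kept their sign there. The higher genes Ccl8 and Ch25h had the opposite sign in the other gated cells. So did the lower genes Slc15a2, Hspa1a, Hspa1b, Edil3, Clec4e and Cxcl1. Whether the differences belong to the selected cells in particular was not tested. Cells with Cxcl9 alone, where the type I interferon and cell cycle lists lay higher, were 53.5% and 45.9% of the selected cells. The part of this mix in the list values below was not tested.

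Type I interferon genes were higher in the selected cells of the library labelled SPP1. Of 6 compared, 5 were past 1.5-fold, with a median log2 ratio of 1.17 against -0.03 over all genes, and in the other gated cells 1 passed and the median was 0.76. Isg15, a ubiquitin-like protein, stood at 58.8 CPM in the library labelled SPP1 and 24.2 CPM in the library labelled vector (1.28), Ifih1 at 266 and 119 CPM (1.15), and Rsad2, the antiviral enzyme viperin, at 137 and 60.1 CPM (1.19). Oasl1 (1.27) and Ifit1 (1.11) made up the 5. A few cells held much of this: for Rsad2, 3 cells carried 63.4% of the UMIs in the library labelled SPP1 and 53.5% in the library labelled vector. Without each gene's 3 highest cells in each library, Ifih1 remained past 1.5-fold (1.01), while Isg15 (1.05), Oasl1 (1.08), Rsad2 (0.92) and Ifit1 (0.56) kept the sign but not the call. The interferon-gamma list, by contrast, had 0 of 16 past 1.5-fold and a median of 0.05, and Cxcl9 itself had a log2 ratio of 0.17.

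Cell cycle genes were higher as well, with 5 of 16 past 1.5-fold in the library labelled SPP1, a median log2 ratio of 0.60 and 14 of 16 above 0. In the other gated cells 0 passed and the median was 0.14. Without each gene's 3 highest cells, Ube2c and Ccnb2 remained past 1.5-fold, while Cenpf (0.76), Ccna2 (0.91) and Top2a (0.78) did not. Ube2c, which encodes a ubiquitin-conjugating enzyme of mitosis, stood at 145 CPM in the library labelled SPP1 and 63.4 CPM in the library labelled vector (1.20). Hmmr, a spindle protein gene outside the list, stood at 74.7 and 24.7 CPM (1.60), and Incenp, of the chromosomal passenger complex, at 80.3 and 31.2 CPM (1.36). Trim69, a ubiquitin ligase gene, had the highest ratio, with 77.9 CPM in the library labelled SPP1 and 20 CPM in the library labelled vector (1.96), but 3 cells held 56.1% and 30.2% of its UMIs. Without them Trim69 kept a ratio of 1.37 but lost the call, which also needs 50 CPM in a library.

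Of 14 chemokine genes, 4 were higher and 2 lower in the selected cells of the library labelled SPP1. Ccl8 stood at 787 CPM in the library labelled SPP1 and 315 CPM in the library labelled vector (1.32, interval 1.18 to 1.46), while the other gated cells held 208 and 305 CPM (-0.55). Ccl7 stood at 890 and 453 CPM (0.98), Ccl5, a chemokine gene of T cells and macrophages, at 297 and 129 CPM (1.20), and Ccl4, a chemokine gene of activated macrophages, at 766 and 445 CPM (0.79). Ccl17 was lower, with 73.9 CPM in the library labelled SPP1 and 227 CPM in the library labelled vector (-1.62), but 3 cells held 83.9% and 39.4% of its UMIs. Only 5.43% and 12.2% of the selected cells had a Ccl17 UMI. Without the 3 cells of each library the ratio was -3.44. Since they held unequal shares of the UMIs, their removal lowers the ratio and cannot show whether the difference rests on few cells. The cells with Cxcl9 alone held 0 and 3 UMIs of Ccl17, too few for a ratio. Cxcl1, a neutrophil chemokine gene, stood at 138 and 270 CPM (-0.97). Among resident-type genes, Folr2, a folate receptor gene, stood at 58 and 15.8 CPM (1.87) and Pf4 at 1048 and 602 CPM (0.80). Without its 3 highest cells in each library, Folr2 kept a ratio of 1.85 but lost the call. A call also needs 50 CPM in a library, so its loss does not show that the difference rests on those cells. F13a1, of the monocyte list, stood at 340 and 130 CPM (1.38). F13a1 was past 1.5-fold in the other gated cells too, at 820 and 439 CPM (0.90). Ch25h stood at 238 and 97.4 CPM (1.29).

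The genes lower in the library labelled SPP1 were of several kinds. Slc15a2, a peptide transporter gene, stood at 6.36 CPM in the library labelled SPP1 and 61 CPM in the library labelled vector, from 8 and 131 UMIs (-3.26, -4.50 to -2.24), while it stood at 75.1 and 44.6 CPM in the other gated cells (0.75). Slc7a11, the cystine transporter gene, stood at 73.1 and 201 CPM (-1.46), and the lectin receptor gene Clec4e at 64.4 and 132 CPM (-1.03). The heat shock genes Hspa1a, at 82.7 and 263 CPM (-1.67), and Hspa1b, at 70.8 and 213 CPM (-1.59), share nearly all their sequence and are read as 1 signal. In the other gated cells they had ratios of 0.44 and 0.21. Such genes also respond to the handling of tissue, whose part was not tested. Edil3 (-1.43) and Nrg1, by identifier ENSMUSG00000062991 (-0.87), completed the 9. The inflammatory list had 0 of 14 genes past 1.5-fold, but all 14 lay below 0, with a median of -0.42 against -0.01 in the other gated cells.

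The class II genes, which the rule holds above a threshold, differed little between the libraries in the selected cells. H2-Aa had a log2 ratio of -0.24, H2-Ab1 of -0.20, H2-Eb1 of -0.24 and Cd74 of 0.02, whereas in the other gated cells these were -1.38, -1.26, -1.43 and -0.95. Spp1 stood at 1456 CPM in the selected cells of the library labelled SPP1 and 1940 CPM in those of the library labelled vector (-0.41, -0.49 to -0.33), and in the other gated cells at 3066 and 2376 CPM (0.37, 0.33 to 0.41). Neither ratio was past 1.5-fold, and the 2 had opposite signs. Ccr2 was lower in the library labelled SPP1 in both sets of cells, with 490 and 700 CPM in the selected cells (-0.52) and 370 and 586 CPM in the others (-0.67). Cd86 (0.20) and Cd274 (0.00) differed little.

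**Figure D5:**
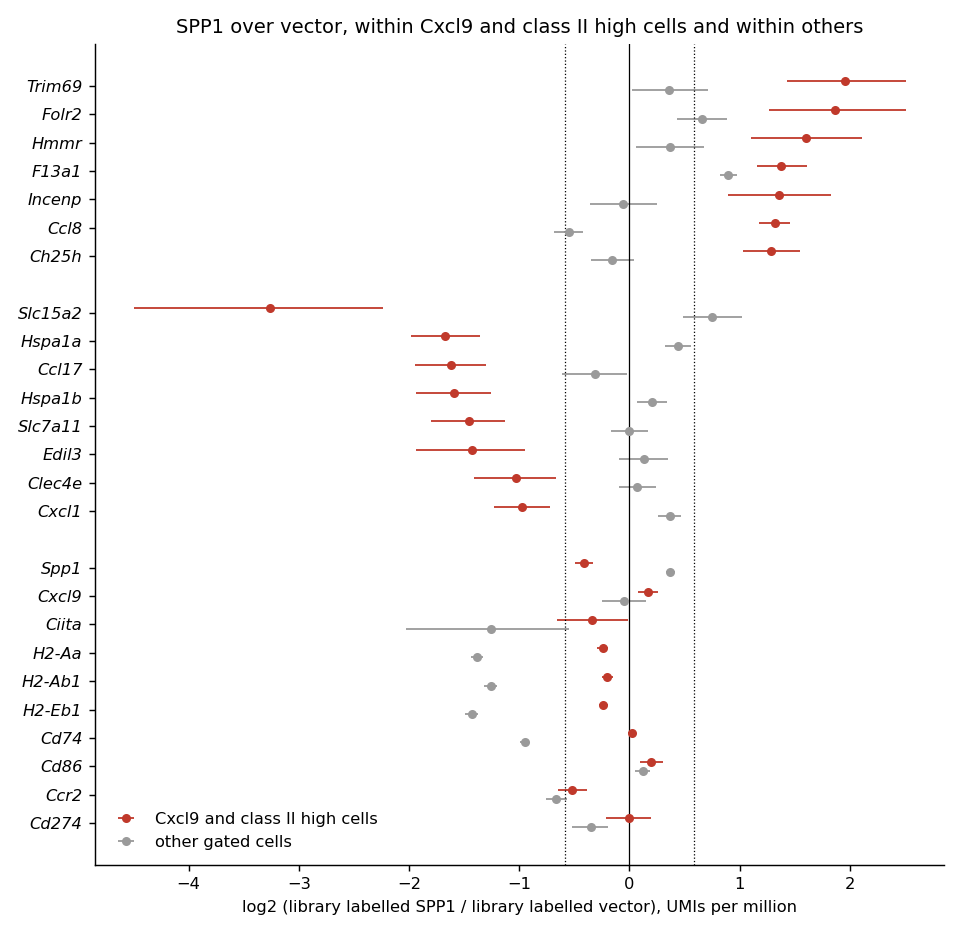
The x axis gives the log2 ratio of CPM in the library labelled SPP1 over that in the library labelled vector, with exact 95% intervals, for named genes within the Cxcl9 and class II high cells and within the other gated cells. Dotted lines mark 1.5-fold; Ccl8 and Slc15a2 lie on opposite sides of 0 in the 2 sets of cells.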

How the data were processed

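Single-cell RNA sequencing was made of 1 tumour per group, and groups were taken from the labels. The authors deposited raw UMI counts per gene and barcode, without normalization, for 56941 genes. Per the submitters' processing notes, Cell Ranger 2.1.1 and build GRCm39 were used. How cells were called, with which annotation release, and whether doublets or free RNA had been removed is not given in the sources used here. The 147 symbols that named over 1 gene were told apart by Ensembl identifier.

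The cells, gene lists and comparisons were chosen with earlier results of these data known. UMIs were summed per class of cells and library and given as CPM. A gene needed 20 CPM in a class and 20 UMIs (50 CPM between libraries). It was past 1.5-fold when the exact conditional binomial 95% interval of its ratio was, in both libraries for comparisons of cells. Shares have exact binomial (Clopper-Pearson) intervals and ratios of shares log intervals, and a count of 0 allows up to 3 counts. With 1 library per group there was no test over samples, and the scripts were tested on simulated data. Genes were named by a rule: up to 14 each way by the smaller ratio of the 2 libraries for the selected cells, up to 8 each way between libraries, up to 4 of each list, of which some are given, and a set always named. Mitochondrial, ribosomal, clone-named and sex-linked marker genes were left out, as were the genes of the selection, which are described apart. Of the 19 gene lists and 13 marker lists, 4 symbols were not found and 1 was ambiguous. Doublets were predicted by Scrublet's method, written anew, and kept. Python 3.11.15, numpy 2.4.6, scipy 1.17.1, pandas 2.3.3, scikit-learn 1.9.0 and matplotlib 3.10.9 were used. Other thresholds, filters, scalings and weights of cells were tried. Values of a few genes are not reported here.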

Additional observations from a re-analysis of the deposited data

How the results depend on the processing

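The share of selected cells in the gate kept its lower value in the library labelled SPP1 under every threshold, depth, doublet and dendritic setting tried, with log2 ratios of -0.24 to -0.51, and was -0.79 over all barcodes within the limits. Of 28 genes higher and 14 lower in the selected cells, the counts were 9 and 3 after thinning to 2000 UMIs, 9 and 2 at 2-fold, and 102 and 98 by means over cells without intervals. The higher count was 16 with 0 UMIs of tumour genes. The lower count was 25 with 1 UMI of Cxcl9 and Ciita, 25 with 40 class II UMIs per 10000 and 9 without cells with a dendritic UMI. Of 29 genes higher and 9 lower in the library labelled SPP1, the counts were 93 and 39 with no filter on low counts, 111 and 138 by means over cells, and 6 and 5 at 2-fold. The higher count was 18 with 1 UMI and 6 after thinning. The lower count was 14 with 3 UMIs and 23 with 0 tumour UMIs. Alternatives chosen after seeing the data followed. Without each gene's 3 highest cells, 26 were lower in the selected cells and 18 higher in the library labelled SPP1. Against cells with class II alone the counts were 16 and 1, and 24 genes were below the library labelled vector in cells with Cxcl9 alone. Of the log2 ratios past 1.5-fold in the first comparison, some of the library labelled SPP1 changed sign against cells with class II alone. These were the resident-type median 0.18, H2-DMb2 -0.12, Il1r2 -0.05, Cbr2 1.32, Gas6 0.17, Fcrls 0.13, Pmp22 0.05 and Pf4 0.07. Smaller ratios of that library changed sign too, such as Ccr2 from 0.41 to -0.24. The causes were not tested. Of the values of single genes and lists under all settings, 2241 stayed within the interval of the main value (list medians within 0.15) and 364 moved beyond it. A further 8, whose main value was past its limit, changed sign. Sign changes of smaller values are counted with those that stayed or moved. No ratio was taken where both counts were at most 3. No paired analysis was possible because there was 1 library per group. The few Ciita UMIs per cell and the 17 and 33 cells with Ciita alone limit that split, and thinned counts leave few genes with enough UMIs.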

Other observations

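A small set of gated cells had Cxcl9 or Ciita but class II under the threshold, 26 cells in the library labelled SPP1 and 35 in the library labelled vector. Cxcl9 stood at 1198 and 1278 CPM in them, Gbp2 at 716 and 292 CPM and Acod1 at 211 and 131 CPM. Cd74, the invariant chain of class II, stood at 923 and 808 CPM, Pf4 at 1322 and 1486 CPM and Ccr2 at 309 and 236 CPM. These genes were picked after their values were seen, and no count over genes was made.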
